A study of Mus musculus with 10 samples.

Results

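The interferon-induced GTPases of the guanylate-binding protein (GBP) and immunity-related GTPase (IRG) families were followed in the epithelium of the mouse ileum, the distal small bowel. The listed members were 10 genes, 6 of the GBP family (Gbp2, Gbp3, Gbp6, Gbp7, Gbp8 and Gbp9) and 4 of the IRG family (Igtp, Irgm1, Irgm2 and Iigp1), out of 13932 genes in the deposited count table. They were taken by gene symbol, and all 10 had a row. RNA came from live cells sorted as CD45- (CD45 marks leukocytes) and EpCAM+ (EpCAM marks epithelium), with 1 library per mouse. The 5 dIEC mice were H2-Ab1 fl/fl; Villin:Cre+, so that Cre recombinase, driven in intestinal epithelium by the villin promoter, was to delete H2-Ab1, which encodes the beta chain of an MHC class II molecule. The 5 WT mice were H2-Ab1 fl/fl; Villin:Cre-, so both groups carried the floxed allele and an effect of Cre itself and one of the deletion cannot be told apart. Each genotype held 2 females (dIEC 7 and 9, WT 8 and 10) and 3 males (dIEC 1, 3 and 5, WT 2, 4 and 6). No age was given in the labels.

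GBPs and IRGs are GTP-hydrolysing proteins that cells make after interferon, above all interferon gamma. When it binds its receptor, receptor-bound kinases switch on transcription factors that bind the GAS element of target promoters, while IRF proteins bind the ISRE. The induced GTPases assemble on the vacuoles and membranes of intracellular bacteria and parasites and help to break them open. Regulatory IRGs, the GMS class to which Irgm1, Irgm2 and Igtp belong, sit on the cell's own organelles and keep the effector IRGs, the GKS class to which Iigp1 belongs, inactive there. In the gut, where epithelial cells meet microbes and nearby lymphocytes supply interferon gamma, both families are part of cell-autonomous defence.

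The promoters are shown because the members are induced through them and because several members moved together across the libraries. RefSeq start sites on GRCm38.p6 were matched for 6 of the 10 members (Gbp7, Gbp3, Gbp2, Irgm1, Igtp and Irgm2). No window was matched for Gbp6, Gbp8, Gbp9 and Iigp1. The 250 bases before each start were searched on both strands for 2 letter patterns, GAAANNGAAA for an ISRE-like element and TTCNNNGAA for a GAS element. Capitals mark the matches, and an ISRE-like match on the other strand reads TTTC, 2 bases, TTTC. The stretches are chr3:142530086-142530335 for Gbp7, chr3:142559794-142560025 for Gbp3 and chr3:142620594-142620623 for Gbp2, all on the plus strand. They are chr11:48871428-48871457 on the minus strand for Irgm1, and chr11:58199306-58199555 and chr11:58214727-58214976 on the plus strand for Igtp and Irgm2. GENCODE starts some transcripts further upstream than RefSeq. For Gbp3, the bases in such an exon were left off. For Gbp2 and Irgm1 the matches themselves lie inside a GENCODE exon of the gene, and only 30 bases about them are given.
Gbp7: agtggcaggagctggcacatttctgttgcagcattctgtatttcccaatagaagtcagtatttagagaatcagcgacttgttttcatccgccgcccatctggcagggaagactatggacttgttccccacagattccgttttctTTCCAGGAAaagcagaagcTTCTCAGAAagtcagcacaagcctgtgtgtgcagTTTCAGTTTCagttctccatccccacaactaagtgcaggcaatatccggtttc
Gbp3: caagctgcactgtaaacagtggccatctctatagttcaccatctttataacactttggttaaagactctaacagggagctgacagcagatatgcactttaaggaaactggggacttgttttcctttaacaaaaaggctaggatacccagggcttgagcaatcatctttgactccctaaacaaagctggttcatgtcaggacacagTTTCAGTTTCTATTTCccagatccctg
Gbp2: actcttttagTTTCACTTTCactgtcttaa
Irgm1: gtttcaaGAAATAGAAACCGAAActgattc
Igtp: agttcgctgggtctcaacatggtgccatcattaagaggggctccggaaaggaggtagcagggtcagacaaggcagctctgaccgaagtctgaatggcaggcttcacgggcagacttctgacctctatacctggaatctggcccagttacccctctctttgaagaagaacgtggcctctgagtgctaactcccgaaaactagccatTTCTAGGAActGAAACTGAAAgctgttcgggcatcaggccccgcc
Irgm2: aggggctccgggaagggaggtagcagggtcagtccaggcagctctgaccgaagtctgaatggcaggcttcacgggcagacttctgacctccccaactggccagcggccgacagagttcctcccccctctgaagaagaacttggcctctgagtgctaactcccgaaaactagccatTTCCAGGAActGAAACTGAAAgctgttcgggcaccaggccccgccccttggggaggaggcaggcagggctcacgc

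An ISRE-like match stood in 6 of the 7 windows of these 6 members, 1 per gene, against 2.98% of all 32851 RefSeq windows of the same length. The other window, a second and downstream start of Gbp3 (chr3:142560106-142560355), held no match to either pattern. The 8 matches lay between positions -64 and -15, counted back from the start. In Gbp3 and in Irgm1 a pair of matches overlapped, sharing 1 GAAA block. A GAS match was found in 3 of the 7 windows (Gbp7 with 2 matches, Igtp and Irgm2 with 1 each), against 7.02% of all windows, and both patterns stood together in those 3, against 0.332% of all windows. In Igtp and Irgm2 the GAS match was followed after 2 bases by the ISRE-like match. This joined pattern, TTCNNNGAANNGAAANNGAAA on either strand, was counted after it had been seen in those promoters. It occurred in 5 of the 32851 windows (0.0152%), those of Igtp, Irgm2, Tgtp1, Tgtp2 and Gm12185, all IRG genes on chromosome 11. The windows of Igtp and Irgm2 were identical at 194 of 215 aligned bases (90.2%), while the other 14 pairs of member windows shared 46.2% to 56.7% of aligned bases. Among 11 other GBP and IRG genes with a window, 6 held an ISRE-like match, 5 a GAS match and 5 both. Ifi47 held neither, and its log2 CPM followed that of Irgm2 (Pearson r = 0.93, 10 libraries). Whether the matches go with the shared pattern across libraries was not tested. The matches are letters in a reference sequence and no binding was measured.

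**Figure D1:**
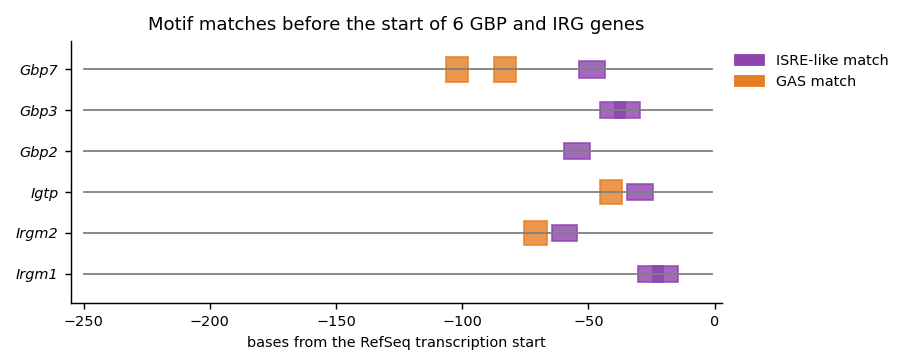
Positions of the pattern matches in the 250 bases before the RefSeq start of 6 GBP and IRG genes, with the distance from the start in bases on the horizontal axis and 1 line per gene. All 6 lines carry an ISRE-like match between positions -64 and -15, and Gbp7, Igtp and Irgm2 also carry GAS matches.

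The members lie in 5 places on GRCm38 (GENCODE coordinates). Gbp7 (3:142530342-142550149), Gbp3 (3:142560026-142573209) and Gbp2 (3:142620602-142638008) are neighbours on chromosome 3. Gbp8 (5:105014150-105139540), Gbp9 (5:105077630-105139539) and the row named Gbp6 (5:105214907-105293695) lie on chromosome 5. Irgm1 (11:48861968-48871683) lies on chromosome 11 in a cluster with Gm5431, Gm12185, Tgtp2 and Ifi47. A second cluster, 9.09 Mb away, holds Gm12250, Igtp (11:58199556-58207591) and Irgm2 (11:58199618-58222782). Iigp1 (18:60376027-60392634) lies on chromosome 18.

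Near-identical copies limit some of these rows. The identifier behind the Gbp6 row (ENSMUSG00000079362) is named Gm43302 in the GENCODE release used and spans the Gbp10 and Gbp6 loci. All of its 50-base windows (100%) also occur in another gene, 93.0% in GENCODE's own Gbp6 and 64.7% in Gbp10, neither of which has a row of its own, so its counts cannot be assigned to 1 gene. Windows shared with other genes made up 18.1% of Gbp8, 12.7% of Gbp7, 11.8% of Igtp (all with Irgm2, whose longest transcript overlaps it), 8.05% of Gbp9 and 7.83% of Irgm2. For Gbp3, Gbp2, Iigp1 and Irgm1 the share ran from 0.379% to 3.75%.

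H2-Ab1 checked the genotype labels. It had 0.767 to 3.10 CPM (counts per 1000000, with library totals scaled by TMM factors) in the dIEC libraries, against 63.1 to 367 CPM in the WT libraries (log2 fold change -6.40, SE 0.51, edgeR quasi-likelihood adjusted p = 0.000735; exact two-sided permutation p = 0.00794 over 252 assignments, the smallest they can give). Library totals ran from 9174101 to 13484363 counts. The epithelial markers Epcam, Vil1, Cdh1, Krt8 and Krt20 summed to 8501 to 16258 CPM in dIEC and 8511 to 12275 CPM in WT libraries. The leukocyte marker Ptprc, which encodes CD45, had 0.0853 to 0.795 CPM in dIEC and 0.361 to 0.782 CPM in WT libraries, and it was the 1 of 5 leukocyte markers with a row. No T cell marker of 5 had one. Macrophage and dendritic cell markers with a row (2 of 5, Csf1r and Cd68) summed to 2.22 to 6.997 CPM in dIEC and 2.51 to 5.54 CPM in WT libraries. In bulk RNA, fewer cells that express a gene and less of its RNA per cell cannot be told apart.

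Of the 10 members, 9 passed the filter on low counts. In the comparison of dIEC with WT mice over both sexes, 0 of these 9 passed an adjusted p of 0.05 by edgeR's quasi-likelihood test, by DESeq2 or by limma voom, where edgeR called 0.0151%, DESeq2 0.0226% and voom 0.0151% of the 13286 tested genes. All 9 fitted log2 fold changes were above 0, against 52.6% of all tested genes, with a median of 0.94 against 0.014 over all tested genes. An unadjusted p under 0.05 was reached by 3 of 9 (Gbp8, Gbp6 and Gbp7), all higher in dIEC, against 2.97% of all tested genes, 1.33% in that direction. The dIEC and WT libraries overlapped for 9 of 9 members, whereas 0.181% of tested genes had every dIEC library above every WT library. The members varied together across libraries, so counts of members, here and in the comparisons below, are not counts of independent observations. The members' median depended on single libraries. It was 0.43 without WT 8 and 1.54 without WT 2, and 0.40 (7 of 9 above 0) without dIEC 7 and WT 8.

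Irgm1, a regulatory IRG of the Golgi and other endomembranes, had 51.4 and 63.5 CPM in the dIEC females 7 and 9 and 42.3, 41.9 and 33.2 CPM in the dIEC males 1, 3 and 5, against 35.4 and 26.3 CPM in the WT females 8 and 10 and 69.1, 21.9 and 43.7 CPM in the WT males 2, 4 and 6. WT male 2 was the highest of all 10 libraries and WT male 4 the lowest, so the WT values enclosed the dIEC values. The log2 fold change was 0.23 (SE 0.31; edgeR adjusted p = 1), with 0.058 without WT 10 and 0.54 without WT 2.

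Igtp, also called Irgm3, a regulatory IRG of the endoplasmic reticulum, had 98.1 and 29.5 CPM in the dIEC females 7 and 9 and 19.3, 26.8 and 20.6 CPM in the dIEC males 1, 3 and 5, against 6.95 and 19.8 CPM in the WT females 8 and 10 and 48.9, 19.6 and 17.7 CPM in the WT males 2, 4 and 6. The dIEC mean of 38.9 ± 33.4 CPM and the WT mean of 22.6 ± 15.6 CPM (SD, n = 5 each) were set apart mainly by dIEC 7 (log2 fold change 0.64, SE 0.61). The log2 fold change was 0.12 without dIEC 7 and 1.13 without WT 2. Irgm2, a regulatory IRG that restrains caspase-11 activation, had 41.6 and 18.7 CPM in the dIEC females and 12.6, 17.2 and 13.0 CPM in the dIEC males, against 3.93 and 12.6 CPM in the WT females and 26.8, 10.5 and 11.7 CPM in the WT males, in the same order of mice. Its high and low libraries were those of Igtp, dIEC 7 and WT 2 at the top and WT 8 at the bottom (log2 fold change 0.61, SE 0.50, with 0.20 without WT 8 and 1.03 without WT 2).

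Iigp1, also called Irga6, an effector IRG that loads onto the vacuole of Toxoplasma, was scarce. It had 1.61 and 2.02 CPM in the dIEC females 7 and 9 and 0.835, 1.09 and 0.767 CPM in the dIEC males 1, 3 and 5. In WT mice it had 0 and 0.359 CPM in the females 8 and 10 and 2.15, 0.361 and 0.547 CPM in the males 2, 4 and 6. These values rest on 0 to 33 counts, and the 0 in WT 8 allows up to 0.251 CPM (3 counts, counting error only). WT 2 lay above all 5 dIEC libraries and the other 4 WT libraries lay below them (log2 fold change 0.94, SE 0.77, with 0.43 without WT 8 and 1.94 without WT 2).

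**Figure D2:**
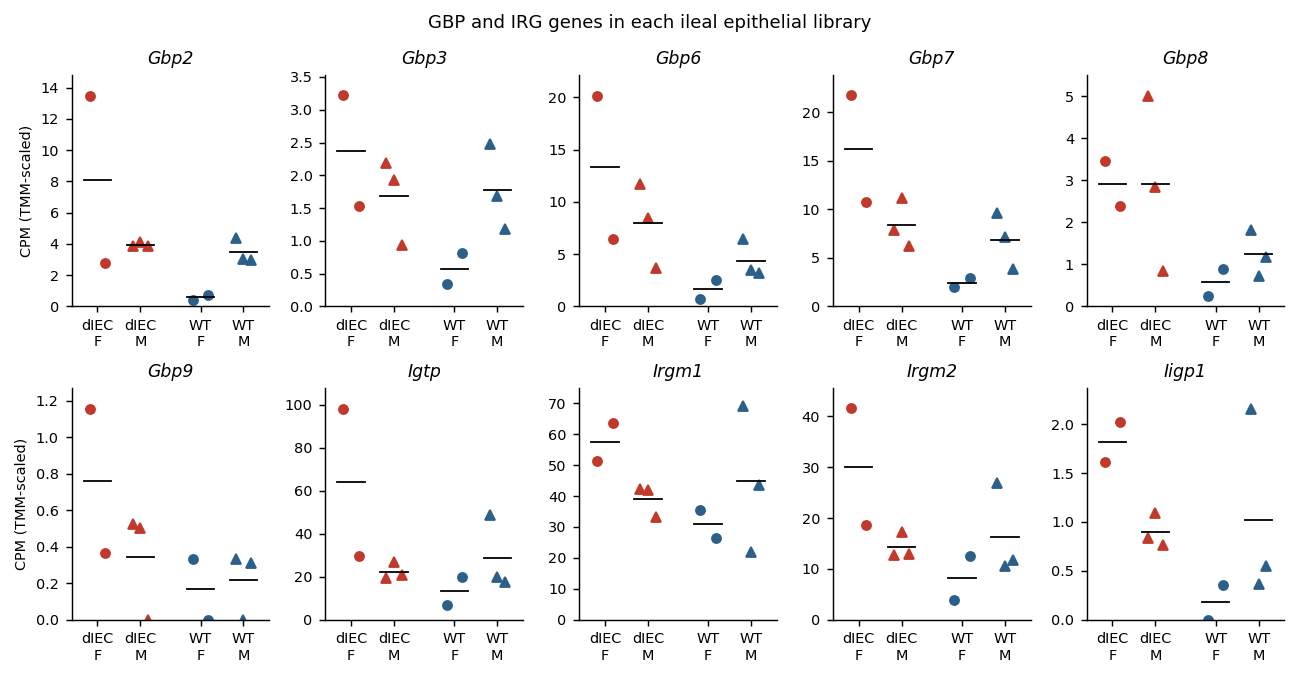
CPM of the 10 GBP and IRG genes in every library, with dIEC females, dIEC males, WT females and WT males from left to right, points for mice and bars for the mean of each set. In all 10 panels both dIEC females lie above both WT females, while dIEC and WT males overlap in all panels; dIEC 7 is far above the other dIEC mice for Gbp2 (13.5 CPM), Igtp (98.1 CPM) and Irgm2 (41.6 CPM).

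Among the GBPs, Gbp6 and Gbp8 of chromosome 5 had the largest fold changes over both sexes. The row named Gbp6 had 20.2 and 6.42 CPM in the dIEC females 7 and 9 and 11.7, 8.46 and 3.67 CPM in the dIEC males 1, 3 and 5, against 0.753 and 2.51 CPM in the WT females 8 and 10 and 6.45, 3.49 and 3.21 CPM in the WT males 2, 4 and 6. All dIEC libraries except dIEC 5 and 9 exceeded the highest WT library, WT 2 (log2 fold change 1.66, SE 0.57; edgeR adjusted p = 1). Gbp8 had 3.45 and 2.38 CPM in the dIEC females and 5.01, 2.85 and 0.852 CPM in the dIEC males, against 0.251 and 0.898 CPM in the WT females and 1.82, 0.722 and 1.17 CPM in the WT males, in the same order. All dIEC libraries but dIEC 5 exceeded every WT library (log2 fold change 1.60, SE 0.52; edgeR adjusted p = 1). Gbp8 was also the gene in which dIEC 1, not dIEC 7, was highest.

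On chromosome 3, Gbp7, which takes part in assembly of the phagocyte oxidase, had 21.8 and 10.8 CPM in the dIEC females 7 and 9 and 7.83, 11.1 and 6.22 CPM in the dIEC males 1, 3 and 5, against 2.01 and 2.87 CPM in the WT females 8 and 10 and 9.60, 7.10 and 3.83 CPM in the WT males 2, 4 and 6. The WT females were the lowest of all 10 libraries (log2 fold change over both sexes 1.22, SE 0.50). Gbp2, a lipid-anchored GBP that coats parasite vacuoles and cytosolic bacteria, had 13.5 and 2.75 CPM in the dIEC females and 3.86, 4.10 and 3.84 CPM in the dIEC males, against 0.419 and 0.718 CPM in the WT females and 4.38, 3.01 and 2.97 CPM in the WT males, in the same order. The males of both genotypes and dIEC 9 lay within 2.75 to 4.38 CPM, with dIEC 7 above and both WT females below (log2 fold change 1.41, SE 0.69; 0.76 without dIEC 7). Gbp3 had 3.22 and 1.53 CPM in the dIEC females and 2.19, 1.93 and 0.938 CPM in the dIEC males, against 0.335 and 0.808 CPM in the WT females and 2.48, 1.68 and 1.17 CPM in the WT males. dIEC 7 was again the highest library and the WT females the lowest (log2 fold change 0.68, SE 0.50, with 0.34 without WT 8).

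Gbp9 did not pass the filter. Its counts were 10 and 6 in the dIEC females 7 and 9 and 5, 6 and 0 in the dIEC males 1, 3 and 5, against 4 and 0 in the WT females 8 and 10 and 4, 0 and 4 in the WT males 2, 4 and 6. No test was made of it.

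Compared within sex, the genotypes were set apart in females. Both dIEC females lay above both WT females for 9 of 9 tested members, against 8.01% of all tested genes, and the median log2 fold change of dIEC over WT females was 2.32, against 0.044 over all tested genes, of which 55.4% were above 0. By edgeR, with the spread estimated over all 10 libraries, 0 of 9 members passed (0.0376% of all tested genes did), and 8 of 9, all but Irgm1, had an unadjusted p under 0.05, all higher in dIEC (4.08% of all tested genes, 1.48% in that direction). DESeq2 called 3 of 9, Gbp2 (adjusted p = 0.000342), Gbp7 (adjusted p = 0.000419) and Gbp6 (adjusted p = 0.0197), and 0.504% of all tested genes, while limma voom called 0 of 9 and 0.0452% of all tested genes. With 2 mice per genotype the call therefore rests on the tool. The 9 members also followed each other across libraries, so they are not 9 independent observations. The edgeR log2 fold changes in females were 3.79 (SE 0.74) for Gbp2, 3.01 (SE 0.80) for Gbp6, 2.73 (SE 0.54) for Gbp7, 2.32 (SE 0.87) for Gbp8, 2.25 (SE 0.70) for Igtp, 2.02 (SE 0.68) for Gbp3, 1.86 (SE 0.63) for Irgm2 and 0.90 (SE 0.43) for Irgm1. For Iigp1, at 0 and 4 counts in the WT females, the fitted value depends on the handling of a 0. Without dIEC 7 and WT 8 the median was 1.38, with 9 of 9 above 0.

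In males the genotypes overlapped for 9 of 9 members, against 3.06% of tested genes with all dIEC males above all WT males and 3.66% with all below. Of the 9 members, 0 passed (0.0151% of all tested genes by edgeR, and as many by DESeq2 and voom) and 0 had an unadjusted p under 0.05 (0.82% of all tested genes). Log2 fold changes in males were above 0 for 4 of 9 members, against 48.1% of all tested genes, with a median of -0.085. They ran from -0.37 for Igtp to 1.19 for Gbp8. WT 2 bore on this sign, since without it 9 of 9 were above 0 with a median of 0.40, and without dIEC 5 the median was 0.20.

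The difference between the sexes in the effect of genotype was tested by an interaction term. Of the 9 members, 0 passed by edgeR (0.00753% of all tested genes), by DESeq2 (0.128%) or by voom (0%). The smallest adjusted p values were those of DESeq2, 0.0658 for Gbp2 and 0.182 for Gbp7. All 9 interaction terms were above 0, against 54.5% of all tested genes, with a median of 2.16 against 0.041, and 6 of 9 had an unadjusted p under 0.05 (2.18% of all tested genes, 1.08% in that direction). Without dIEC 7 and WT 8 the median was 1.04. With a cell cycle score as a covariate Gbp2 passed (log2 interaction 3.65, SE 0.63; edgeR adjusted p = 0.0414), in a fit that called 0.113% of all tested genes. Between females and males over both genotypes, 0 of 9 members passed (0.0376% of all tested genes) and 0 had an unadjusted p under 0.05 (4.58% of all tested genes).

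**Figure D3:**
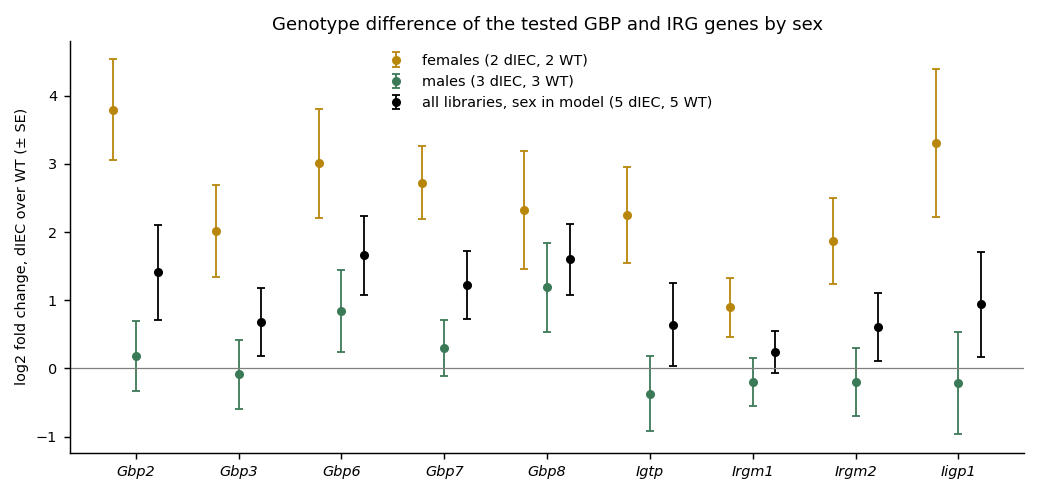
Log2 fold change of dIEC over WT (± SE, edgeR) for the 9 tested members, in females (2 dIEC, 2 WT), in males (3 dIEC, 3 WT) and in all libraries with sex in the model. The values in females lie above those in males for every gene shown, from 0.90 for Irgm1 to 3.79 for Gbp2 in females.

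Other markers also set the WT females apart. The 4 haemoglobin genes of the erythroid list summed to 13.3 to 27.5 CPM in the dIEC libraries, 12.5 to 23.1 CPM in the WT males, and 0 and 0.18 CPM in the WT females 8 and 10. Of these 4, 2 were called in females by edgeR, Hbb-bs (adjusted p = 0.0133) and Hba-a1 (adjusted p = 0.0408), against 0.0376% of all tested genes. DESeq2 called 4 of 4 in females (0.504% of all tested genes) and 3 for the interaction (0.128%). Hbb-bs was also the 1 gene that edgeR called for the interaction (log2 interaction 7.85, SE 0.77; adjusted p = 0.0284). The part of what the haemoglobin difference marks in the GBP and IRG values was not tested. Cell cycle transcripts, 25 genes of replication and mitosis, summed to 282 and 1700 CPM in the dIEC females 7 and 9. In the WT females 8 and 10 they summed to 812 and 366 CPM, so that the sums of the genotypes overlapped in females. Fitted log2 fold changes in females were above 0 for 24 of the 25 (median 0.76), against 55.4% of all tested genes. Interaction terms were above 0 for 25 of 25 (median 0.93), against 54.5%. An unadjusted edgeR p under 0.05 was reached by 0 of 25 in either comparison (4.08% and 2.18% of all tested genes).

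Across the 10 libraries the members followed each other closely. As a description over libraries that share depth scaling, the correlation (Pearson r of log2 CPM) of a member with the mean of the other 8 was 0.84 to 0.94 for all but Irgm1, for which it was 0.57. The mean z-score of the 9 members was highest in dIEC 7 (1.41), WT 2 (0.79) and dIEC 9 (0.52) and lowest in WT 8 (-1.74) and WT 10 (-0.80). WT 8 was the lowest library for 8 of 9 members, against 15.8% of all tested genes, and dIEC 7 the highest for 6 of 9, against 23.3%. WT 2 was the highest for Irgm1 and Iigp1. WT 2 is a male and WT 8 a female of the same genotype, and their mean z-scores were further apart than those of any dIEC pair.

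Within clusters, the r between genes was 0.95 to 0.98 for Gm12250, Igtp and Irgm2, 0.89 to 0.91 for Gbp7, Gbp3 and Gbp2, and 0.94 for Gbp8 and Gbp6, and some of these pairs share sequence. Likeness did not stop at the cluster, since Gbp3 and Gbp6, on different chromosomes, had r = 0.94. In the cluster of Irgm1, r ran from -0.0042 (Irgm1 and Gm5431) to 0.68. Over the 28 pairs of members without Irgm1 r was 0.67 to 0.98, and over the 8 pairs with Irgm1 it was 0.44 to 0.71.

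**Figure D4:**
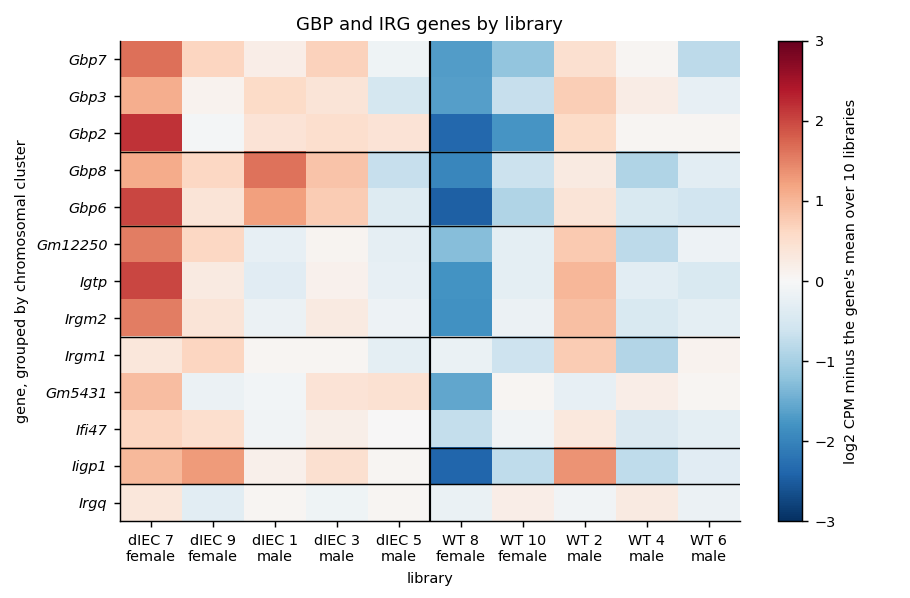
Log2 CPM minus each gene's mean over 10 libraries for the 9 tested members and 4 relatives, in rows grouped by chromosomal cluster, with dIEC libraries left of WT libraries. Most rows are high in dIEC 7 and WT 2 and low in WT 8, Irgm1 and Gm5431 depart from that order, and Irgq stays near its mean in every library.

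Irgm1, the member least like the others, was also the one with the highest correlation with cell cycle transcripts. Its log2 CPM correlated with the mean log2 CPM of the 25 cell cycle genes at r = 0.571 (permutation p = 0.0845) and rho = 0.588 (permutation p = 0.0799, n = 10 libraries), and without dIEC 7 and WT 10, the libraries farthest from the median, r was 0.923 (n = 8). The relation did not pass adjustment over the 9 members (adjusted p = 0.761 for r and 0.719 for rho), and its size depended on those 2 libraries. For the other 8 members r was -0.24 to 0.24 (adjusted permutation p = 0.854 each). dIEC 7 had the lowest cell cycle level (mean log2 CPM 2.85) with the highest Igtp level, and WT 8 had a middle cell cycle level (4.40) with the lowest. The 10 villus enterocyte markers also summed highest in dIEC 7 (86168 CPM), against 27397 to 68921 CPM in the other libraries. dIEC 7 had the lowest TMM factor (0.81), and without TMM scaling its Igtp level was 79.5 CPM, still the highest. The part of either in the Igtp values was not tested. The within-genotype samples, 5 each, were too few for a correlation of their own.

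**Figure D5:**
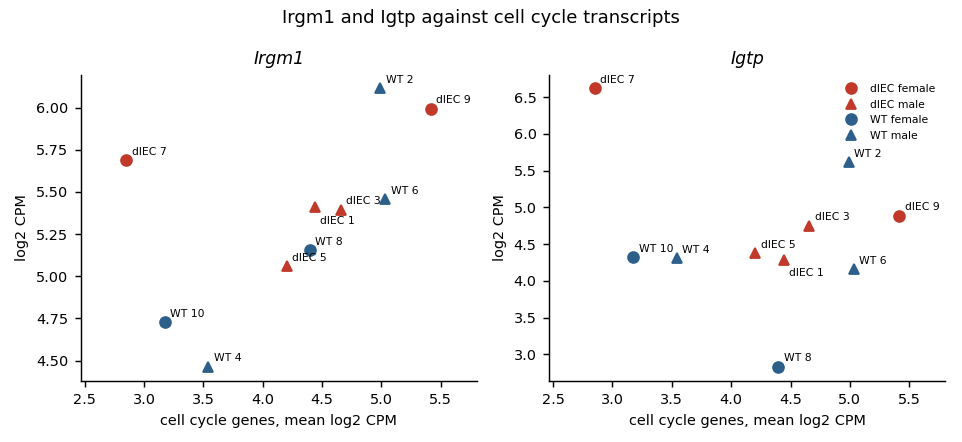
Log2 CPM of Irgm1 (left) and Igtp (right) against the mean log2 CPM of 25 cell cycle genes, 1 point per library, with colour for genotype and shape for sex. For Irgm1 all points but dIEC 7 lie along a rising band, and for Igtp dIEC 7 (2.85 on the horizontal axis) and WT 8 (4.40) stand at the top and bottom.

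Per kilobase of exon, the regulatory IRGs stood highest among the 10 listed members. In dIEC libraries the mean level was 19.2 CPM per kb for Igtp, 7.99 for Irgm1 and 5.58 for Irgm2, then 2.34 for Gbp6, 2.23 for Gbp2 and 2.06 for Gbp7, then 0.85 for Gbp8, 0.60 for Gbp3, 0.22 for Iigp1 and 0.098 for Gbp9. In WT libraries it was 11.2 CPM per kb for Igtp, 6.76 for Irgm1 and 3.55 for Irgm2, then 0.91 for Gbp2 and for Gbp7, 0.76 for Gbp6, 0.40 for Gbp3, 0.28 for Gbp8, 0.12 for Iigp1 and 0.038 for Gbp9. The first 3 and the last 2 places were the same in both genotypes. Neighbours within the middle group (Gbp2, Gbp6 and Gbp7) differed by less than their SD over libraries, which was 0.48 to 1.76 CPM per kb. The lead of Igtp over Irgm1 was also smaller than the SD of Igtp, 16.5 CPM per kb in dIEC and 7.73 CPM per kb in WT libraries. Of the relatives, Ifi47 (14.2 CPM per kb in dIEC and 10.2 in WT libraries) and Gm12250 (11.6 in dIEC and 7.10 in WT) had means between those of Igtp and Irgm1. Gm5431 lay there in dIEC libraries (8.44) and below Irgm1 in WT libraries (5.78). Exon lengths came from GENCODE, and the annotation used for counting was not given. GENCODE types Gm12250 as a processed pseudogene with 1274 exon bases, so its level per kb depends on that gene model. The level of Igtp relative to Irgm1, per kb, was 5.49 in dIEC 7 and 1.31 to 1.84 in the other dIEC libraries, against 0.564 in WT 8 and 1.16 to 2.57 in the other WT libraries, while Igtp relative to Irgm2 stayed within 2.75 to 4.31 in all 10.

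Of 17 further GBP and IRG genes asked for, 7 had a row and 4 were tested. Gbp4, Tgtp2 and Gm12185 had at most 12 counts in any library. By edgeR and by DESeq2 0 of 4 passed over both sexes or within a sex. An unadjusted edgeR p under 0.05 was reached by 0 of 4 over both sexes, against 2.97% of all tested genes. In females 2 of 4 reached it, Ifi47 and Gm12250, both higher in dIEC (4.08% of all tested genes, 1.48% in that direction). Ifi47, also called Irgd, an effector IRG, had 26.8 to 45.7 CPM in dIEC and 17.7 to 36.2 CPM in WT libraries (log2 fold change 0.46, SE 0.22). Gm12250, also called Irgb10, which attacks bacterial membranes, had 8.44 to 30.2 CPM in dIEC and 4.10 to 17.8 CPM in WT libraries (log2 fold change 0.59, SE 0.47). Gm5431, of which 37.3% of windows are shared, had 22.3 to 48.3 CPM in dIEC and 8.46 to 29.1 CPM in WT libraries (log2 fold change 0.56, SE 0.32). Irgq, a divergent IRG that interferon does not induce, had 25.4 to 40.4 CPM in dIEC and 27.6 to 38.0 CPM in WT libraries (log2 fold change 0.01, SE 0.16). In females the log2 fold changes of these 4 were 0.96, 1.89, 1.01 and 0.03 in the same order.

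The 8 genes outside both families with the pattern most like the members' mean z-score over the 10 libraries were, by Pearson r, Nlrc5 (0.969), Nfkb2 (0.959), Ciita (0.931), Cd74 (0.920), Mtus2 (0.920), Bcl9 (0.918), Mir5107 (0.917) and Zbp1 (0.913). Nlrc5 is the transactivator of MHC class I genes and Ciita that of MHC class II genes, Cd74 encodes the MHC class II invariant chain, Nfkb2 an NF-kappa-B subunit and Zbp1 a nucleic acid sensor. Mir5107 overlaps an exon of Cd74 by 12 bases, so the reads of these genes may not be distinct. Nlrc5 had 43.4 CPM in dIEC 7 and 4.94 to 20.8 CPM in the other dIEC libraries, against 1.67 CPM in WT 8 and 3.23 to 17.0 CPM in the other WT libraries. Cd74 had 2805 CPM in dIEC 7 and 75.8 to 1325 CPM in the other dIEC libraries, against 49.0 CPM in WT 8 and 87.2 to 716 CPM in the other WT libraries.

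The rest of the interferon pathway was read from lists of genes by role, and by edgeR no gene of these lists passed in dIEC against WT over both sexes, in females or in males. Over both sexes DESeq2 also called 0, and an unadjusted p under 0.05 was reached by 3 of their 72 tested genes (4.17%), Il18, Gabarapl1 and Cd274, close to the 2.97% of all tested genes. Among ligands and receptors, Ifng, Ifnb1, Ifnl2 and Ifnl3 had no row. Of 7 tested genes 3 had a log2 fold change above 0 over both sexes, against 52.6% of all tested genes. Il18, a cytokine that induces interferon gamma, had 12.9 to 29.2 CPM in dIEC and 21.5 to 90.3 CPM in WT libraries (log2 fold change -0.77, SE 0.33), and the highest library was WT 8. Of 11 kinases and transcription factors 10 were above 0, with a median of 0.19. Nlrc5 had a log2 fold change in females of 3.54 (SE 0.88; adjusted p = 0.633 by edgeR and 0.00348 by DESeq2). Irf8, a partner of ISRE binding, had a log2 fold change of 0.22 (SE 0.15). Of 7 inhibitors 6 were above 0, with a median of 0.14, among them Socs1 (0.30, SE 0.31), a feedback inhibitor of JAK kinases, and Usp18 (0.37, SE 0.49), which restrains the type I receptor.

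Of 15 genes that target GBPs and IRGs to vacuoles, mostly of the ATG conjugation system, 7 were above 0 with a median of -0.018. Gabarapl1, a ubiquitin-like ATG8 protein, had 8.25 to 17.6 CPM in dIEC and 5.36 to 10.95 CPM in WT libraries (log2 fold change 0.65, SE 0.21). Of 7 genes for enzymes that attach lipid anchors or process lipid-anchored proteins, 2 were above 0, with a median of -0.15. Of 7 tested inflammasome genes 4 were above 0. Casp4, the receptor protease for bacterial lipopolysaccharide, had 61.0 and 70.7 CPM in the dIEC females 7 and 9 and 39.7 to 55.2 CPM in the dIEC males, against 31.1 and 21.8 CPM in the WT females 8 and 10 and 46.6 to 56.2 CPM in the WT males. Its log2 fold change in females was 1.31 (SE 0.24; adjusted p = 0.345 by edgeR and 0.000929 by DESeq2). The interaction term of Casp4 was called by DESeq2 (adjusted p = 0.027) and not by edgeR (adjusted p = 1).

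Other targets of interferon gamma were 16 genes that include chemokines, immunoproteasome subunits and MHC class II genes. Over both sexes 15 of 16 were above 0 (median log2 fold change 0.59), against 52.6% of all tested genes. In females 16 of 16 were (median 1.81), against 55.4%, and in males 6 of 16 (median -0.039), against 48.1%. DESeq2 called 4 of 16 in females, among them Nos2, Ciita and Cd74, against 0.504% of all tested genes. Nos2, the inducible nitric oxide synthase, had 200 and 409 CPM in the dIEC females 7 and 9 and 94.6 to 334 CPM in the dIEC males, against 26.3 and 13.6 CPM in the WT females 8 and 10 and 139 to 267 CPM in the WT males (log2 fold change in females 3.93, SE 0.66; adjusted p = 0.325 by edgeR and 2.79e-07 by DESeq2). Cd274, which encodes PD-L1, had a log2 fold change of 1.66 (SE 0.57) over both sexes. The dynamin-like GTPases Mx1 and Mx2, products of type I and III interferon, had log2 fold changes of 0.22 (SE 0.49) and 0.29 (SE 0.29). Mx1 was highest in WT 4 (23.9 CPM), a library with a negative mean z-score of the GBP and IRG genes. Next came dIEC 7 (22.8 CPM), and WT 8 was lowest (4.44 CPM). Mx2 was highest in dIEC 7 (11.7 CPM) and lowest in WT 8 (3.68 CPM).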

How the data were processed

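Per the labels' protocols, live CD45- EpCAM+ ileal cells of each mouse were sorted and libraries made with a stranded kit after ribosomal RNA removal. The deposited table holds the authors' raw counts per gene, with Novoalign and mm10 named in the submitters' processing notes; no counting program, use of strand or annotation is given in the sources used here. Genotypes follow the sample labels. The design text gives Cre- for both genotypes. The table held 0 columns of other samples. Libraries of a group differed beyond sampling noise (chi-square per degree of freedom 16 to 152).

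Genes were filtered by filterByExpr on genotype and sex (13286 of 13932 kept, 95.4%), scaled by TMM and tested in R 4.3.3 with edgeR 4.0.16 (robust quasi-likelihood, sex plus genotype, or their product; Benjamini-Hochberg adjusted p under 0.05), with DESeq2 1.42.0 and limma 3.58.1 voom as alternatives. Each SE was the size of a log2 fold change divided by the root of its F statistic. Log2 CPM used a prior count of 2. Permutation tests against the cell cycle score used 100000 random orders in Python 3.11.15, with ranks and adjustment from scipy 1.17.1. The exact test of H2-Ab1 ran over all 252 assignments in R. Positions and 50-base windows came from GENCODE on GRCm38, and promoters from RefSeq. Scripts were tested on simulated data.

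The members and lists were chosen with earlier results of these data known. Genes named are the members, other listed GBP and IRG genes, H2-Ab1, up to 3 genes per list with the smallest genotype p (given in part, with 1 not reported here), and the 8 most like the members' mean z-score.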

Additional observations from a re-analysis of the deposited data

Results flagged for a closer look

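Within groups of 5 libraries, 4 values stood apart by Dixon's criterion, of 22 groups examined, where chance gives about 1.1. In dIEC 7, Gbp2 was at 13.5 CPM with the nearest dIEC library at 4.10 CPM, Igtp at 98.1 CPM with the nearest at 29.5 CPM, and Irgm2 at 41.6 CPM with the nearest at 18.7 CPM. In WT 2, Iigp1 was at 2.15 CPM with the nearest WT library at 0.547 CPM. The flags in dIEC 7 came from the same mouse and from genes that followed each other, so they were not independent.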

How the results depend on the processing

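No paired analysis was possible because the dIEC and WT mice share no replicate number. The males fitted alone and the fit without dIEC 7 and WT 8 were chosen after seeing the data, as were all alternatives for the members within each sex and the cell cycle covariate for sex and within-sex counts. The main fits called 2 genes for genotype, 5 for sex, 1 for the interaction, 5 in females and 2 in males. DESeq2 called 11 for sex, 17 for the interaction and 67 in females, with 3 members in females. Limma voom called 0 for the interaction. The cell cycle covariate gave 275 for sex, 15 for the interaction (1 member), 469 in females (2 members) and 1 in males. Without dIEC 7 and WT 8, 0 were called for the interaction and 0 in females. Leaving out 1 library gave 0 to 1 for the interaction, 0 to 2 in females, 1 to 2 in males, and 0 to 1 members in females (Gbp2 without dIEC 9, adjusted p = 0.0153). The causes were not tested.

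Signs turned for single members. In males alone the genotype values were -0.093 for Gbp3, -0.38 for Igtp, -0.22 for Irgm1 and -0.22 for Irgm2, with Iigp1 filtered out. Without dIEC 7 and WT 8 they were -0.13 for Igtp and -0.0025 for Irgm2. By voom, Iigp1 in males was 0.14. Leaving out 1 library, male values ran from -0.32 to 0.25 for Gbp3, -0.63 to 0.26 for Igtp, -0.53 to 0.25 for Irgm1, -0.43 to 0.36 for Irgm2 and -0.57 to 0.94 for Iigp1, each positive without WT 2. Counts of 0 to 33 limit Iigp1 and those of 0 to 10 Gbp9.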

Other observations

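Within WT mice, H2-Ab1 itself had 63.1 and 130 CPM in the females 8 and 10 and 367, 246 and 235 CPM in the males 2, 4 and 6. WT 8 and WT 10 were also the lowest WT libraries in the mean z-score of the GBP and IRG genes, and WT 2 the highest, over 5 libraries and with no test. Within WT males the haemoglobin sum was 23.1 CPM in WT 2, 12.5 CPM in WT 4 and 17.1 CPM in WT 6. That is the order of their mean z-scores (0.79, -0.44 and -0.30). For H2-Ab1, WT 4 stood above WT 6. In the dIEC mice 7, 9, 1, 3 and 5 the haemoglobin sums were 27.5, 21.3, 19.9, 13.3 and 14.2 CPM. Their mean z-scores were 1.41, 0.52, 0.38, 0.44 and -0.26, not in the same order. No test was made of these orders.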
